A study of Mus musculus with 12 samples.

Results

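Selenoproteins are proteins that carry selenocysteine, the selenium counterpart of cysteine, at a position encoded by the stop codon UGA. The 8 genes described here are 5 whose proteins reside in the endoplasmic reticulum (ER), Selenof, Selenok, Selenom, Selenos and Selenot, and 3 whose proteins work in the cytosol, Gpx1, Gpx4 and Txnrd1. They were chosen by name from what is known of the proteins, and all 8 were found among the 55416 gene identifiers of each library. The study purified ribosomes from mouse embryonic stem cells of the line E14Tg2a.4 whose ribosomal protein Rpl31 was fused to FLAG, TEV and AviTag sequences (Rpl31-FTA). The 2 plasmid-borne fragments of ALIBi, a split biotinylation system, were brought in by transient transfection and directed the biotin label to ribosomes at the ER or in the cytosol. Poly(A) RNA was sequenced from the purified ribosomes (ribosome-bound) and from the lysate before purification (whole-cell). The 4 groups were ER ribosome-bound, cytosol ribosome-bound, ER whole-cell and cytosol whole-cell, with 3 biological replicates each, 12 libraries in all. All groups shared the tagged cell line, transfection and lysis in cycloheximide, which holds ribosomes on their mRNAs, and the sample titles name no siRNA for any of them. The titles call the replicates biological, but nothing in the labels says whether they came from separate cultures. The p-values reflect the spread between these libraries, which may be technical if they did not.

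Reads counted in genes came to 21110420 in the shallowest and 26920565 in the deepest library. The summed level of 7 stem cell markers (Pou5f1, Nanog, Sox2, Zfp42, Esrrb, Tfcp2l1 and Dppa5a) was 6922 to 9032 CPM (read counts scaled to a common library size) in the 12 libraries, and all were above 1 CPM in every group. The summed levels of 5 endoderm, 3 mesoderm and 3 neural markers lay between 1.45 and 18.6 CPM, with Afp, Foxa2, T, Mixl1 and Pax6 under 1 CPM in every group. The 4 fibroblast markers (Col1a1, Col1a2, Thy1 and Postn) summed to 68.3 to 74.0 CPM in ER ribosome-bound libraries. In the other 9 libraries they summed to 18.6 to 21.7 CPM. In whole-cell RNA the sum was 19.4 to 21.2 CPM with ER and 19.9 to 21.7 CPM with cytosol targeting. Postn was under 1 CPM in every group, and Col1a2 in every group except ER ribosome-bound. The part of other cell types in the results below was not tested. In bulk RNA of this kind, fewer cells that express a gene and less of its RNA per cell cannot be told apart.

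A ribosome that meets UGA in a selenoprotein mRNA can insert selenocysteine in place of stopping. The selenocysteine insertion element in the untranslated end of the mRNA binds Secisbp2, and the elongation factor Eefsec delivers the selenocysteine tRNA. Proteins bound for the ER are mostly recognised by an N-terminal signal peptide or first membrane segment while the ribosome is still translating, and the ribosome is then moved to the ER membrane. ER selenoproteins take part in folding and quality control of secretory proteins, and cytosolic selenoproteins reduce peroxides and thioredoxin. In embryonic stem cells and other proliferating cells, Gpx4 is known for protection from ferroptosis, the death caused by peroxidised membrane lipids.

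The coding sequence around the selenocysteine codon is shown for all members because it is the element that they share. In the sequences below, 5′ to 3′, the codon is in capitals, with up to 12 coding bases on each side. They were read from GENCODE M21 transcripts (GRCm38, sense strand of the APPRIS principal transcript) and lie on chromosome 3 for Selenof and Selenot, 14 for Selenok, 11 for Selenom, 7 for Selenos, 9 for Gpx1 and 10 for Gpx4 and Txnrd1.
Selenof: gaagtctgcggaTGAaaattggggagg
Selenok: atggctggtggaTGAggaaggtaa
Selenom: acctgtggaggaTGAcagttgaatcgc
Selenos: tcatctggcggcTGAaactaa
Selenot: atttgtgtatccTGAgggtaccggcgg
Gpx1: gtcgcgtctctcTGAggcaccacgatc
Gpx4: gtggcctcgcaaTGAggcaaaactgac
Txnrd1: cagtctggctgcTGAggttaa
Each coding sequence held 1 in-frame TGA before its stop codon. It was codon 93 of 162 in Selenof, 48 of 145 in Selenom, 49 of 195 in Selenot, 47 of 201 in Gpx1 and 73 of 197 in Gpx4. In Selenok, Selenos and Txnrd1 the codon stood at the end of the protein, with 2, 1 and 1 residues after it. An early or late selenocysteine codon was thus found in both the ER-resident and the cytosolic members.

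Signal peptides and membrane segments are hydrophobic stretches. The 57 coding bases of the most hydrophobic window of 19 residues are shown for the ER-resident members, 5′ to 3′ from the same transcripts, because such a stretch can direct a protein to the ER.
Selenof: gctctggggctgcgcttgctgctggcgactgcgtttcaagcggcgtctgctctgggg
Selenok: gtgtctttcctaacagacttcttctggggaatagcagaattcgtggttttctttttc
Selenom: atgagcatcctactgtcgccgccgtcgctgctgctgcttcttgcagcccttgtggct
Selenos: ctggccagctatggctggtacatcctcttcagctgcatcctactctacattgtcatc
Selenot: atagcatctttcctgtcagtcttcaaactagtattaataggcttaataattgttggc
The window covered residues 12 to 30 of Selenof, 20 to 38 of Selenok, 1 to 19 of Selenom, 30 to 48 of Selenos and 85 to 103 of Selenot. Its mean Kyte-Doolittle hydropathy, a scale on which higher values are more hydrophobic, was 1.37, 1.71, 2.15, 1.98 and 2.47 in that order. Selenot also had a window of 1.79 within its first 40 residues. In the cytosolic members the highest mean was 1.02 for Gpx1, 1.51 for Gpx4 and 1.8 for Txnrd1. The Gpx4 window lay at residues 13 to 31 of the long form, which begins with a mitochondrial targeting sequence, and the Txnrd1 window lay inside the protein, at residues 194 to 212. Within the first 40 residues, the maxima of the cytosolic members were 0.81 (Gpx1), 1.51 (Gpx4) and 0.92 (Txnrd1), so that this measure alone did not separate Gpx4 from Selenof (1.37) or Selenos (1.35). The counts are per gene and cannot tell the mitochondrial, cytosolic and nuclear forms of Gpx4 apart.

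The first comparison asked which selenoprotein mRNAs were on ER-labelled rather than cytosol-labelled ribosomes. All 5 ER-resident members were higher on ER-labelled ribosomes, by 1.75-fold to 3.93-fold, with a median log2 change of 1.52. Of the 3 cytosolic members, 1 was higher, 1 was lower and 1 was not called, and their log2 changes lay between -0.20 and 0.15 with a median of 0.04. Over all 16221 genes tested, 29.1% were called higher, 24.6% lower and 18.1% higher by over 2-fold, with a median log2 change of 0.00. The 3 libraries of each group did not overlap, with ER-labelled ones higher, in 31% of genes, and with ER-labelled ones lower in 27.3%. Calls were made with the quasi-likelihood test of edgeR at an adjusted p of 0.05 (Benjamini-Hochberg, across every gene tested), and levels are CPM scaled by the trimmed mean of M values (TMM).

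Selenof, a thioredoxin-like protein of the ER lumen that is held there by the folding sensor Uggt1, stood at 458, 454 and 452 CPM on ER-labelled ribosomes, against 116, 118 and 113 CPM on cytosol-labelled ribosomes. The groups were far apart and replicates within each lay close together. The log2 change was 1.98 (SE 0.0377, adjusted p = 4.47e-32), and 96.3% of all tested genes had a lower one. Selenos, a membrane protein that recruits the ATPase Vcp to retrotranslocation complexes, was the scarcest member, with 195 to 705 reads per library. It stood at 31.1, 28.0 and 29.4 CPM on ER-labelled ribosomes, against 8.76, 8.87 and 7.59 CPM on cytosol-labelled ones. All ER-labelled libraries were above all cytosol-labelled ones, and the log2 change was 1.81 (SE 0.0796, adjusted p = 4.42e-21).

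Selenot, a thioredoxin-like protein of the ER membrane, stood at 197, 196 and 194 CPM on ER-labelled ribosomes, against 67.3, 70.0 and 67.8 CPM on cytosol-labelled ones. Its log2 change was 1.52 (SE 0.0368, adjusted p = 4.98e-29). Selenok, a small membrane protein that partners the palmitoyltransferase Zdhhc6, stood at 73.3, 66.1 and 65.1 CPM on ER-labelled ribosomes, against 24.2, 25.6 and 24.7 CPM on cytosol-labelled ones. In both genes the groups did not overlap, and Selenok had a log2 change of 1.46 (SE 0.0528, adjusted p = 1.18e-23).

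Selenom, a thioredoxin-like protein of the ER lumen, stood lowest among the ER-resident members in this comparison. Its levels were 37.8, 41.1 and 37.0 CPM on ER-labelled ribosomes, against 21.4, 22.0 and 22.9 CPM on cytosol-labelled ones. The groups did not overlap, and the log2 change was 0.81 (SE 0.0629, adjusted p = 1.05e-13). The 95% interval of this change was 0.68 to 0.93, below the intervals of the other 4 ER-resident members (1.35 to 1.56 for Selenok, 1.44 to 1.59 for Selenot, 1.65 to 1.97 for Selenos and 1.9 to 2.05 for Selenof). The intervals of Selenok and Selenot overlapped, as did those of Selenos and Selenof, so the intervals did not separate these neighbours in the order. Selenom was the ER-resident member whose most hydrophobic window begins at the first residue.

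Gpx4, which reduces phospholipid hydroperoxides, was the most abundant member, with 23720 to 34734 reads per library. It stood at 1289, 1342 and 1244 CPM on ER-labelled ribosomes, against 1278, 1239.8 and 1243 CPM on cytosol-labelled ones. These levels overlapped, and the log2 change of 0.04 (SE 0.0367, adjusted p = 0.348) was not past the threshold, with a 95% interval of -0.03 to 0.12. The annotation names a processed copy, Gpx4-ps2, to which 889 to 1240 reads per library were assigned. Reads that fit both places may be missing from Gpx4, and the same holds for Selenok, which has 6 such copies in the annotation with at most 4 reads in any library, and for Selenot, whose copy had 0 reads. Txnrd1 also overlaps 2 annotated genes on the opposite strand and Selenof 1. The strand setting of the counting is not known here, so reads of such pairs may not have been told apart. Eid3 overlaps Txnrd1 on the same strand, with no shared exon in GENCODE M21.

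Txnrd1, which keeps thioredoxin reduced, stood at 335, 322 and 322 CPM on ER-labelled ribosomes, against 372, 379 and 373 CPM on cytosol-labelled ones. The groups did not overlap, and the log2 change was -0.20 (SE 0.0351, adjusted p = 8.88e-06). Gpx1, the glutathione peroxidase that removes hydrogen peroxide, stood at 367, 403 and 353 CPM on ER-labelled ribosomes, against 345, 326 and 342 CPM on cytosol-labelled ones. The lowest ER-labelled library was above the highest cytosol-labelled one by a margin smaller than the spread within either group, and the log2 change of 0.15 (SE 0.0464, adjusted p = 0.00663) was called.

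Small changes of this size depended on scaling and on which libraries were in the fit. Scaling to the summed counts of 77 gene identifiers of cytosolic proteins (76 symbols, with Aldoa naming 2 identifiers) in place of TMM raised the median of all genes by 0.16 and gave 6614 genes higher and 1302 lower, against 4715 higher and 3983 lower with TMM. With it Txnrd1 was at -0.04 and not called, and Gpx4 was called at 0.21. The Gpx1 call was lost in 12 of 19 alternatives, among them without cytosol ribosome-bound replicate 2 (0.06), replicate 1 (0.10) or 2 (0.03) of the ER ribosome-bound libraries, replicate 2 or 3 of ER whole-cell RNA (0.09) or any 1 of the cytosol whole-cell replicates (0.09). Whole-cell libraries enter this comparison only through the scaling, the filter and the shared spread. Leaving out mitochondrially encoded genes shifted the median of all genes by -0.057. With TMM on all 12 libraries, Selenof (1.976) and Txnrd1 (-0.198) lay just above their ranges over left-out libraries (1.909 to 1.975 and -0.28 to -0.199). Every ER-resident member kept its call and direction in this comparison under all 19 alternatives.

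**Figure D1:**
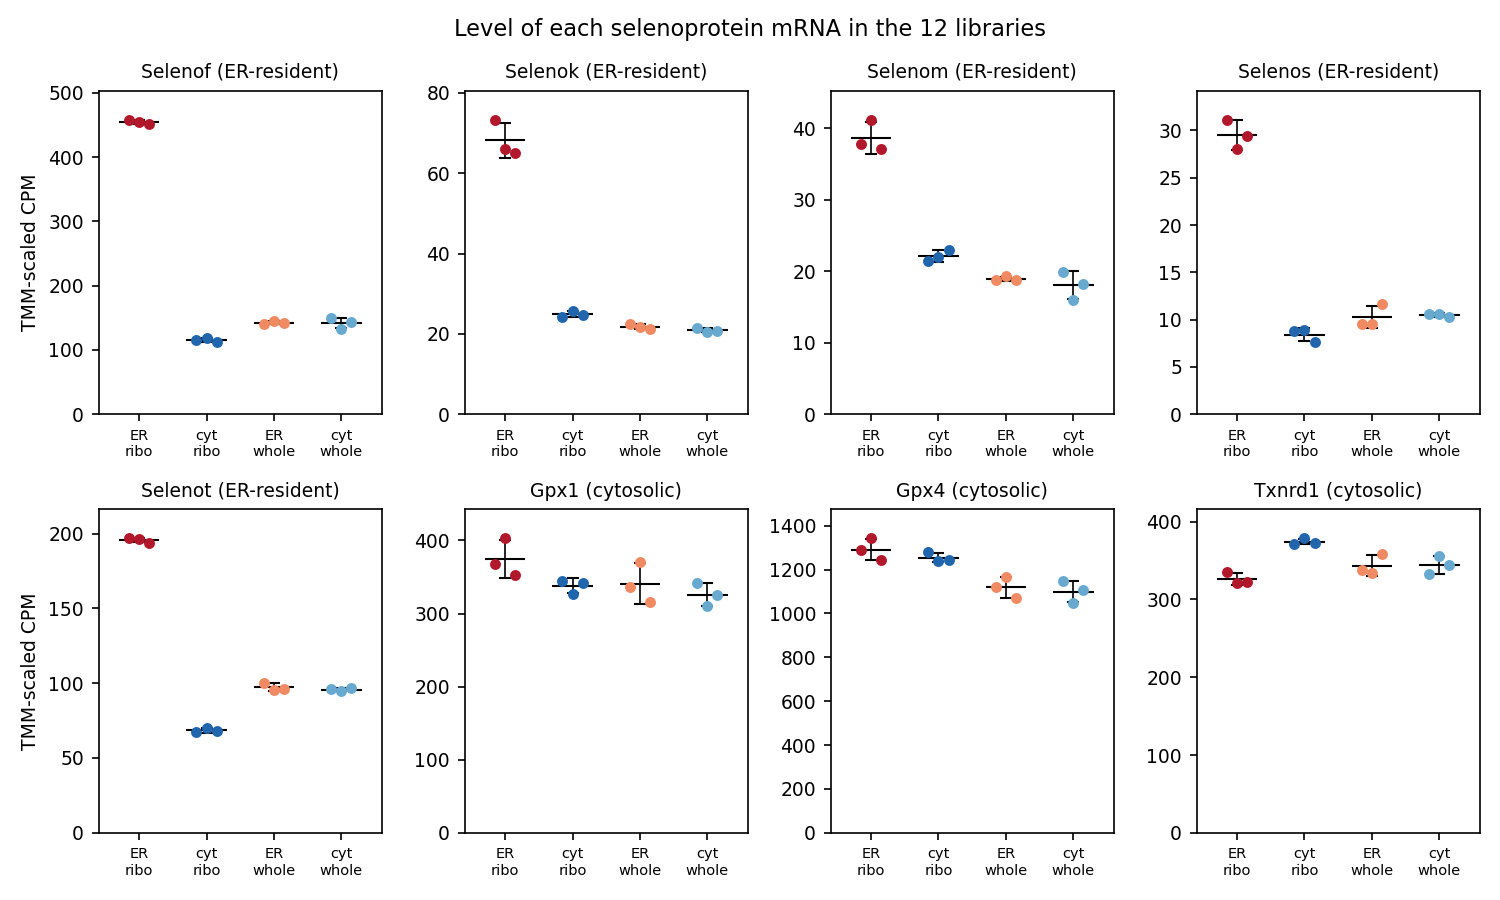
TMM-scaled CPM (vertical axis, linear, from 0) of each member in the 12 libraries, with ER-labelled ribosomes, cytosol-labelled ribosomes, ER whole-cell and cytosol whole-cell RNA from left to right. Points are libraries, and bars are the mean and SD (n = 3). The 5 ER-resident members are highest on ER-labelled ribosomes, with Selenof at 452 to 458 CPM, while the 3 cytosolic members lie within a narrow band in all groups.

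The comparison of ribosome-bound with whole-cell RNA of the same targeting asked how far each mRNA was enriched on the labelled ribosomes. On ER-labelled ribosomes all 5 ER-resident members were enriched over ER whole-cell RNA, by 2.01-fold to 3.19-fold, with a median log2 change of 1.52. Over all genes, 32.5% were called higher, 30.6% lower and 16.5% higher by over 2-fold, with a median of 0.01. With cytosolic scaling the median rose by 0.24, with 8279 genes higher and 2293 lower, against 5271 and 4967 with TMM.

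Selenof had 140.4, 145 and 142 CPM in ER whole-cell RNA, beneath the 452 to 458 CPM on ER-labelled ribosomes, a log2 change of 1.68 (SE 0.0373, adjusted p = 8.91e-30). Selenok followed with 1.64 (SE 0.0548), at 65.1 to 73.3 CPM on ER-labelled ribosomes against 21.3 to 22.4 CPM in ER whole-cell RNA. Selenos was at 1.52 (SE 0.0787), with 28.0 to 31.1 CPM against 9.55 to 11.6 CPM in ER whole-cell RNA. The 95% intervals of these 3 genes overlapped. Selenom was at 1.03 (SE 0.0655), with 37.0 to 41.1 CPM against 18.8 to 19.3 CPM, and Selenot at 1.01 (SE 0.0360), with 194 to 197 CPM against 95.1 to 100.3 CPM in ER whole-cell RNA. The intervals of these last genes overlapped each other and lay below those of Selenof, Selenok and Selenos. The groups did not overlap for any ER-resident member, and over all genes they did not overlap in 33.6% with ribosome-bound libraries higher and in 32% with them lower.

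The cytosolic members had a median log2 change of 0.14 on ER-labelled ribosomes over whole-cell RNA, with 2 of 3 called higher. With cytosolic scaling all 3 were called higher, with a median of 0.38, and Gpx4 was at 0.45 and Gpx1 at 0.38. Under TMM, Gpx4 was called higher at 0.21 (SE 0.0367), with 1244 to 1342 CPM against 1072 to 1166 CPM in ER whole-cell RNA. Gpx1 was called at 0.14 (SE 0.0466) although its levels overlapped, with 353 to 403 CPM against 315 to 371 CPM, and the call was lost with DESeq2 (0.13) and on leaving out replicate 2 of the ER ribosome-bound or replicate 3 of the ER whole-cell libraries (0.08 in each case). Txnrd1 had a log2 change of -0.07 (SE 0.0353, adjusted p = 0.067) and was not called, with 322 to 335 CPM against 334 to 359 CPM. On leaving out replicate 1 of the ER ribosome-bound or replicate 2 of the ER whole-cell libraries it was called lower (-0.10 in each case), as it was with DESeq2 and with only the groups compared (-0.08 in each case). With cytosolic scaling it was called higher (0.17).

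On cytosol-labelled ribosomes the ER-resident members divided. Selenof, Selenos and Selenot were lower than in cytosol whole-cell RNA, and Selenok and Selenom were higher. Over all genes, 20.8% were called higher, 33% lower and 1.92% higher by over 2-fold, with a median of -0.05, so that calls in either direction were common.

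Selenot had 67.3, 70.0 and 67.8 CPM on cytosol-labelled ribosomes, against 95.8, 94.5 and 96.8 CPM in cytosol whole-cell RNA, a log2 change of -0.49 (SE 0.0381, adjusted p = 2.4e-13). Selenof had 113 to 118 CPM against 133 to 149 CPM (log2 change -0.30, SE 0.0384), and Selenos 7.59 to 8.87 CPM against 10.3 to 10.6 CPM (-0.32, SE 0.0918). None of these 3 overlapped between the groups, and over all genes the groups did not overlap in 35.2% with ribosome-bound libraries lower and in 23.4% with them higher. Selenok had 24.2 to 25.6 CPM on cytosol-labelled ribosomes against 20.6 to 21.6 CPM in cytosol whole-cell RNA, a log2 change of 0.25 (SE 0.0604, adjusted p = 7.46e-04). Selenom had 21.4 to 22.9 CPM against 16.0 to 19.9 CPM, a log2 change of 0.29 (SE 0.0692, adjusted p = 5.35e-04). Neither of these groups overlapped, and all 5 calls held under the 19 alternatives. Selenok and Selenom were thus above their whole-cell level on both ribosome pools.

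Of the cytosolic members, Gpx4 was higher on cytosol-labelled ribosomes at 0.19 (SE 0.0367), with 1239.8 to 1278 CPM against 1047 to 1146 CPM in cytosol whole-cell RNA. Txnrd1 was higher at 0.12 (SE 0.0350), with 372 to 379 CPM against 333 to 356 CPM, and at 0.19 without cytosol whole-cell replicate 2 and 0.18 with cytosolic scaling. Gpx1 was at 0.05 (SE 0.0465) and not called, with 326 to 345 CPM against 310.3 to 342 CPM. It was called higher in 10 of 19 alternatives (0.10 to 0.14). These were cytosolic scaling, leaving out mitochondrially encoded genes, no filter, only the groups compared, and leaving out any 1 of 6 libraries, namely cytosol ribosome-bound replicate 2, cytosol whole-cell replicate 1, and replicates 2 and 3 of both ER groups.

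**Figure D2:**
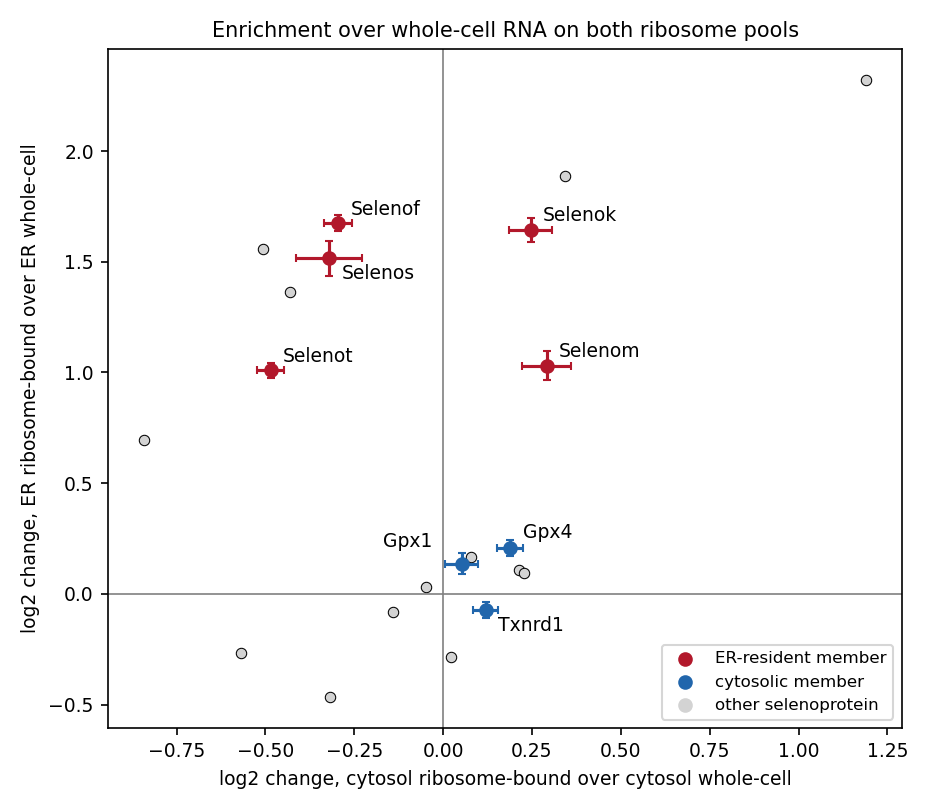
Log2 change of ribosome-bound over whole-cell RNA under cytosol targeting (horizontal axis) and under ER targeting (vertical axis). Red points are ER-resident members, blue points cytosolic members, both with SE, and grey points other selenoproteins. Selenok and Selenom lie right of 0 at 0.25 and 0.29, Selenof, Selenos and Selenot left of it, and the cytosolic members lie near the origin.

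The difference between both enrichments, ER minus cytosol, was tested as an interaction. It was called higher for 24.8%, lower for 18.6% and higher by over 2-fold for 17.6% of all genes (4023 higher and 3010 lower, or 5451 higher and 708 lower with cytosolic scaling, which raised the median by 0.18). All 5 ER-resident members were called higher, at 1.97 (SE 0.0534) for Selenof, 1.84 (SE 0.121) for Selenos, 1.49 (SE 0.0524) for Selenot, 1.40 (SE 0.0822) for Selenok and 0.74 (SE 0.0958) for Selenom. Txnrd1 was called lower at -0.19 (SE 0.0497), and at -0.01 it was not called with cytosolic scaling. Gpx1 at 0.08 (95% interval -0.05 to 0.22) and Gpx4 at 0.02 (-0.09 to 0.12) were not called, except with cytosolic scaling at 0.26 and 0.20. The ER-resident members exceeded the cytosolic ones by 1.48 between their medians, and by 1.43 to 1.58 over the alternatives.

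The whole-cell libraries were compared to see whether the targeting itself went with a change in RNA level. Between ER whole-cell and cytosol whole-cell RNA, 0% of genes were called by edgeR, 634 had an unadjusted p under 0.05 and DESeq2 called 0. The members' log2 changes lay between -0.02 (Selenos, 95% interval -0.21 to 0.16) and 0.07 (Selenom, -0.08 to 0.21), and the groups overlapped for all 8. Over all genes they did not overlap in 5.5% with ER libraries higher and in 3.85% with them lower. With 3 libraries a group, changes within these intervals remain possible. Real changes in other genes could also have gone uncalled after adjustment across every gene tested.

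**Figure D3:**
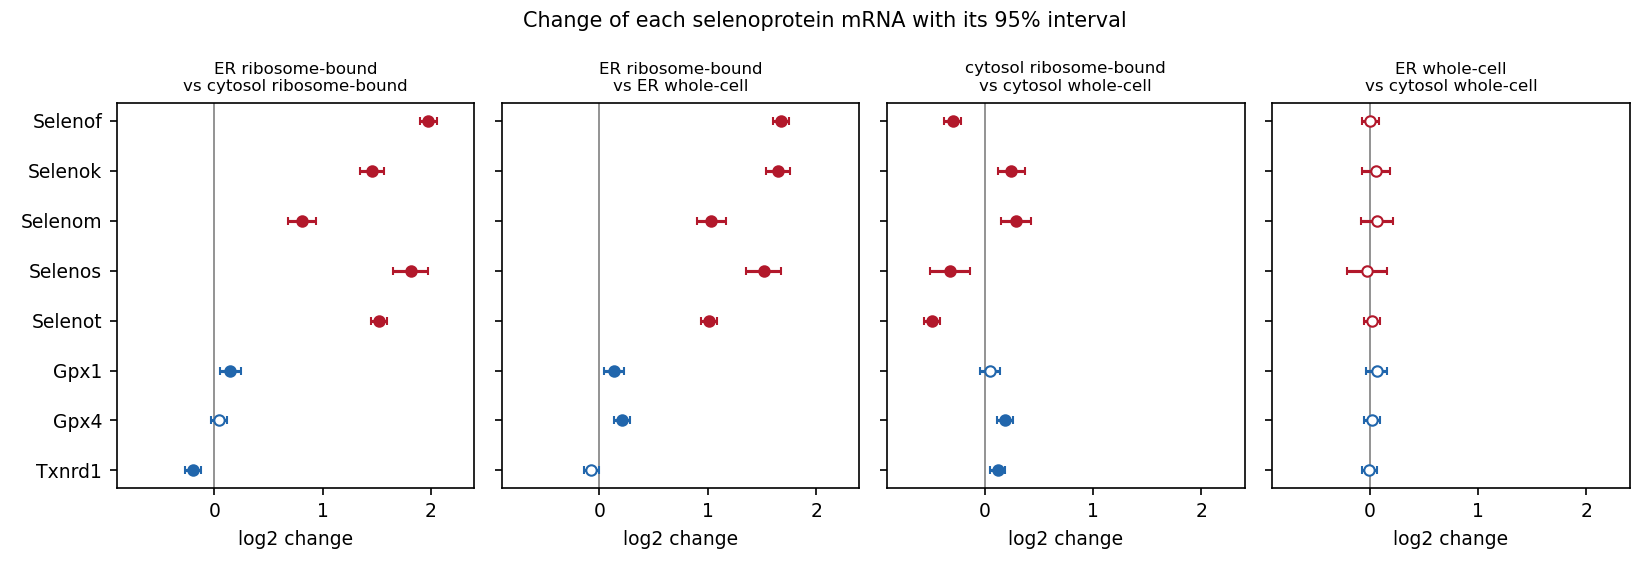
Log2 change (horizontal axis) of each member in 4 comparisons, with 95% intervals. Red marks ER-resident and blue cytosolic members, and open circles were not past the threshold. ER-resident members lie between 0.81 and 1.98 in the first panel, and all 8 members lie near 0 between both whole-cell groups.

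Levels of different genes were compared per kilobase of annotated exon. In ER whole-cell RNA, Gpx4 stood first at 649 ± 27.3 CPM per kb (SD, n = 3), followed by Gpx1 at 237 ± 19.5, Txnrd1 at 48.5 ± 1.88, Selenot at 28.3 ± 0.804, Selenof at 24.5 ± 0.372, Selenom at 12.8 ± 0.191, Selenok at 11.5 ± 0.301 and Selenos at 6.94 ± 0.805 CPM per kb. On ER-labelled ribosomes Gpx4 and Gpx1 again stood first, at 749 ± 28.6 and 259.8 ± 17.7 CPM per kb. Selenof, at 78.2 ± 0.493, and Selenot, at 56.9 ± 0.452, there stood above Txnrd1 at 46.1 ± 1.07 CPM per kb. On cytosol-labelled ribosomes Selenot and Selenof did not differ beyond their spread, at 19.9 ± 0.417 and 19.9 ± 0.481 CPM per kb. The exon length of all annotated transcripts together was used, which understates genes with long rare exons.

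The genes whose profile over the 12 libraries was most like that of each member were found by the root mean square difference of log2 levels, each centred on its own mean, among 9604 genes with a mean of at least 10 CPM. Selenof was closest to Bst2, a membrane protein with a GPI anchor (difference 0.0288), and to Ppib, a prolyl isomerase of the ER lumen (0.0422). Selenot was closest to the gap junction protein Gja1 (0.0412) and to C2cd2 (0.0488). Selenos was closest to Rce1, a protease of the ER membrane (0.0667), and to the convertase Furin (0.079). Selenok was closest to Ndfip1 (0.057) and Marc2 (0.0753), and Selenom to Pnkd (0.0634) and Gpr137 (0.0797), whose log2 changes of cytosol-labelled ribosomes over whole-cell RNA were 0.21 and 0.24. Whether the neighbours of the cytosolic members differ in kind from these was not tested. Gpx1 was closest to the lipid phosphatase Pip4p1 (0.0353) and the initiation factor Eif1 (0.0391), Gpx4 to the cell cycle proteins Ccnd3 (0.0293) and Cdkn1b (0.0311), and Txnrd1 to the chaperone Dnajb6 (0.0276) and the RNA-binding protein Hnrnpul1 (0.031). Among the members themselves, Gpx1 and Gpx4 were the closest pair (0.0731), Selenof and Selenos were the closest ER-resident pair (0.127), and Selenof and Txnrd1 were the farthest apart (0.839).

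The other selenoproteins were read against the members by where their proteins are known to reside. Of 7 selenoproteins that enter the secretory pathway, 5 were tested and all 5 were higher on ER-labelled than on cytosol-labelled ribosomes, with a median of 1.66. Dio1 and Dio2, which activate thyroid hormone, had too few reads. Selenon, a glycoprotein of the ER membrane, averaged 65.7 ± 2.10 CPM with ER and 15.2 ± 0.725 CPM with cytosol targeting (SD, n = 3 each), a log2 change of 2.11 (SE 0.0572). The secreted selenium carrier Selenop was at 1.72 (SE 0.0825), the phospholipid enzyme Selenoi at 1.66 (SE 0.0612), the secreted peroxidase Gpx3 at 1.48 (SE 0.0501) and Dio3, which inactivates thyroid hormone, at 1.19 (SE 0.135). Against cytosol whole-cell RNA, cytosol-labelled ribosomes held more Gpx3 (0.34, SE 0.0566) and Dio3 (1.19, SE 0.179), as they did of Selenok and Selenom. They held less Selenon (-0.51, SE 0.0649), Selenoi (-0.84, SE 0.0653) and Selenop (-0.43, SE 0.0934), as of Selenof, Selenos and Selenot.

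Of 7 further cytosolic or nuclear selenoproteins 6 were tested, of which 2 were called higher and 3 lower on the ER-labelled pool, with a median of -0.05 that was 0.12 with cytosolic scaling (2 higher and 1 lower). Selenow, a small thioredoxin-like protein, was highest among them at 0.32 (SE 0.0449), with 117 ± 5.90 CPM under ER and 93.8 ± 1.79 CPM under cytosol targeting (SD, n = 3 each). It was below its whole-cell level on both pools, at -0.27 (SE 0.0441) on ER-labelled and -0.57 (SE 0.0444) on cytosol-labelled ribosomes. With cytosolic scaling the value on ER-labelled ribosomes was -0.03 and not called. Txnrd3, a relative of Txnrd1, was lowest at -0.41 (SE 0.0933). The mitochondrial Txnrd2 and Selenoo, at 0.02 (SE 0.0988) and -0.04 (SE 0.102), were not called.

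Of 10 genes of the machinery that makes and inserts selenocysteine, 8 were lower and 1 higher on ER-labelled than on cytosol-labelled ribosomes, within a range of -0.26 to 0.18 and with a median of -0.20. With cytosolic scaling 0 were lower and 1 higher, with a median of -0.04. Eefsec, the elongation factor, was at -0.26 (SE 0.0482) and Secisbp2, which binds the insertion element, at -0.19 (SE 0.0464), or -0.10 and -0.03 with cytosolic scaling, not called. Rpl30, a ribosomal protein that also binds the element, was the gene called higher, at 0.18 (SE 0.0382), and not without ER ribosome-bound replicate 3 (0.09).

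Enzymes of related thiol chemistry were counted next. Of 10 thiol enzymes assigned to the ER, 9 were higher on ER-labelled ribosomes, with a median of 2.33. Prdx4, the peroxiredoxin of the ER, was at 2.31 (SE 0.0428), and the cysteine-based glutathione peroxidases Gpx7 and Gpx8 were at 2.03 (SE 0.0592) and 2.19 (SE 0.129). Msrb3, a methionine sulfoxide reductase with ER and mitochondrial forms, stood at -0.02 (SE 0.136) and was not called. Of 10 cytosolic thiol enzymes, 7 were lower and 0 higher, with a median of -0.20, and with cytosolic scaling 3 were lower and 2 higher (median -0.03). Glutathione reductase Gsr was lowest at -0.54 (SE 0.0437), which was called under that scaling too. Among 9 genes of proteins that work with the ER-resident members, 8 were higher, with Uggt1 at 2.15 (SE 0.0477), Sel1l at 2.14 (SE 0.0501), Derl1 at 1.81 (SE 0.0449) and Zdhhc6 at 1.59 (SE 0.0479). Vcp, the cytosolic ATPase that Selenos recruits, was lower at -0.23 (SE 0.0330), and with cytosolic scaling it was no longer called. All 5 ER-resident selenoproteins lay below the median of the ER thiol enzymes.

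**Figure D4:**
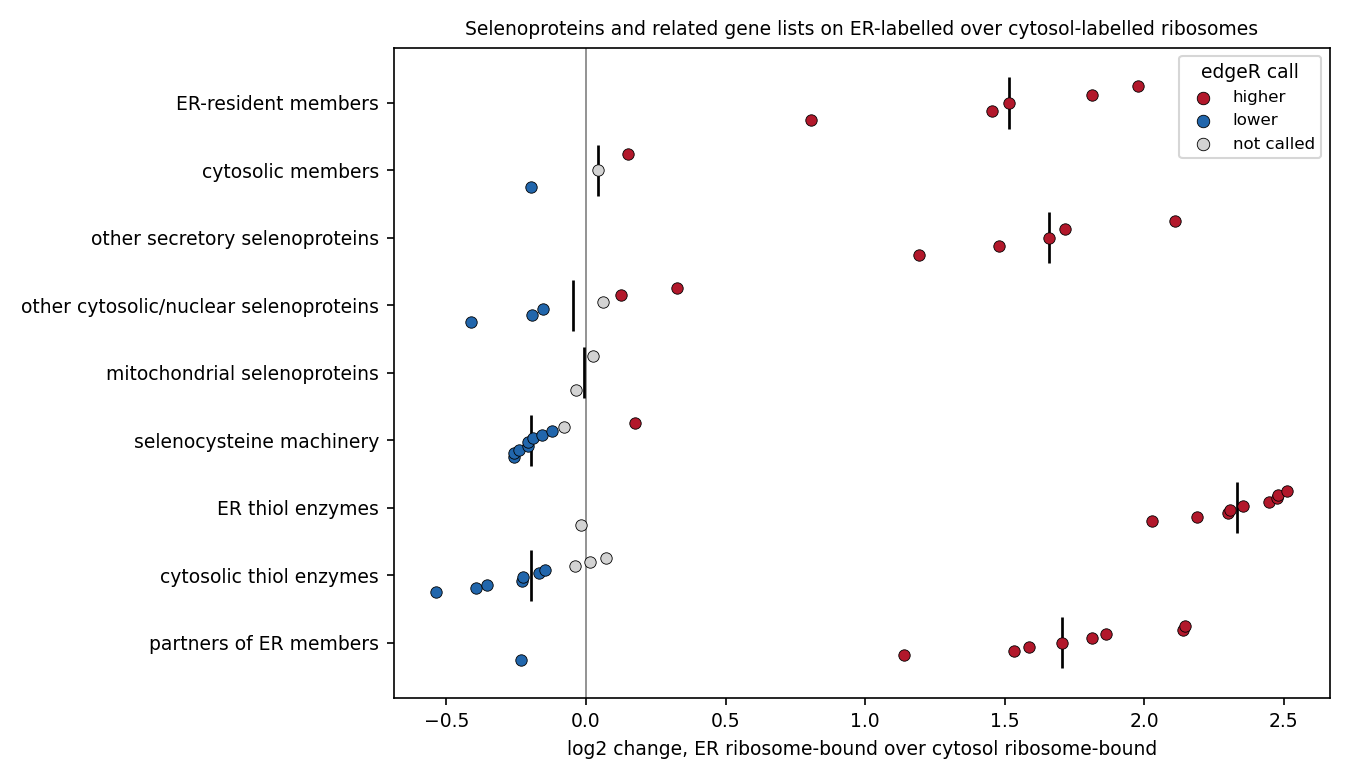
Log2 change of ER-labelled over cytosol-labelled ribosomes (horizontal axis) for each gene tested, by list. Vertical bars are list medians, and colour gives the edgeR call. ER-resident members lie at 0.81 to 1.98 and other secretory selenoproteins at 1.19 to 2.11, while the cytosolic lists and the selenocysteine machinery lie around 0.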

How the data were processed

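Poly(A) RNA of 12 libraries was measured. The authors deposited raw read counts for each Ensembl gene, with no normalization. The submitters' processing notes name HTSeq 0.11.2, STAR 2.7.9a, DESeq2 and the build GRCm39. Which annotation release, strand setting and rule for multimapped reads applied is not given in the sources used here. The 5 class totals for reads not assigned to a gene (8.75% to 12.5% of reads per library) were left out. They include reads not uniquely aligned (4.92% to 7.58%) and ambiguous reads (1.01% to 1.08%). Symbols came from GENCODE M21 (GRCm38), which matched 52083 of 55416 identifiers, so no coordinates are printed.

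Genes were kept with filterByExpr (16221), scaled with TMM, and fitted in 1 model of 4 groups with edgeR 4.0.16 in R 4.3.3. Each of 5 comparisons used the 2-sided quasi-likelihood test with Benjamini-Hochberg adjustment. The SE is the absolute log2 change over the square root of F, and the 95% interval uses a t quantile. All replicate pairs differed by more than counting noise (chi-square per gene 2.11 to 9.15). Intervals do not cover amplification by PCR. DESeq2 1.42.0, other scalings, no filter, fits of the compared groups only, a replicate block and leaving out each library were alternatives.

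The members, lists and tests were chosen with earlier results of these data known. All members are named, with 2 nearest profiles each, and any gene of the lists may be.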

Additional observations from a re-analysis of the deposited data

Results flagged for a closer look

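The enrichment over whole-cell RNA differed between ER and cytosol targeting for 6 of the 8 members, by edgeR's interaction test. Over all genes tested, 24.8% were called higher and 18.6% lower in it. The difference, ER minus cytosol, was 1.97 for Selenof, 1.84 for Selenos, 1.49 for Selenot, 1.40 for Selenok, 0.74 for Selenom and -0.19 for Txnrd1 (log2). The last was not called with cytosolic scaling.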

How the results depend on the processing

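The 5 ER-resident members kept their side of the threshold in all 470 values over 5 comparisons and 19 alternatives (18 for the interaction). The sign changed in 15 of them, all between the whole-cell groups and not called in either setting. Of 282 values of the cytosolic members, 247 kept their side, 17 lost a call and 18 gained one. The sign changed in 33, all not called with TMM, and 1 of these was called in the alternative, Txnrd1 on ER-labelled ribosomes over whole-cell RNA with cytosolic scaling (0.17). That scaling gave 1302 genes lower between ER-labelled and cytosol-labelled ribosomes, 8279 higher and 2293 lower on ER-labelled ribosomes over whole-cell RNA, and 708 lower in the interaction. By construction it shifts every gene alike. It turned small changes of other genes positive, not all of which are named here. On ER-labelled over cytosol-labelled ribosomes these included Sephs2 (0.011), Pstk (0.007), Trnau1ap (0.042) and Prdx1 (0.016). On ER-labelled ribosomes over whole-cell RNA they included Sephs1 (0.046), Secisbp2 (0.15), Eefsec (0.001), Scly (0.10) and Ncl (0.037). Txn1 (0.23), Prdx1 (0.16), Prdx6 (0.22), Gclc (0.13) and Vcp (0.20) also turned positive there. Genes lower in ER than in cytosol whole-cell RNA numbered 7 without a filter and 0 to 2 when each library was left out, 2 being without cytosol whole-cell replicate 3. The distance between the medians of ER-resident and cytosolic members on ER-labelled ribosomes over whole-cell RNA was 1.38 and ranged from 1.27 to 1.54 when each library was left out. Whole-cell RNA came from the lysates used for purification, but the labels do not tie replicate numbers to lysates. The numbers were not taken to pair the samples. Deviations of same-numbered libraries of different groups were correlated at -0.27 to 0.27, and 1 of 12 libraries correlated best with its own number. That check pooled both targetings, so it cannot decide pairing within 1 targeting. Within it, ribosome-bound and whole-cell libraries of the same number gave 0.099, 0.099 and 0.059 (cytosol) and -0.006, 0.264 and 0.272 (ER). Libraries of different numbers gave -0.151 to 0.06 and -0.273 to 0.042. A fit paired within targeting was not run. The replicate block, which joined equal numbers across all groups, changed no member's call. It gave 4692 genes higher and 3945 lower on ER-labelled over cytosol-labelled ribosomes. Depth limited Selenos most, at 195 reads in its lowest library.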
